A study of Mus musculus with 12 samples.

Results

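The mitochondrial ribosomal protein genes are the nuclear genes whose symbols begin with Mrpl or Mrps followed by a digit. The array annotation named 126 probes for 77 such genes, 48 of the large subunit (Mrpl) and 29 of the small subunit (Mrps), among 17655 genes in all. Each gene was read through its brightest probe, the one with the highest mean over the 12 arrays. The samples were atria of male mice, hybridised to Sentrix Mouse-6 beadchips (Illumina). The 6 Tbx3 mice were double transgenic (Cre4-CT): they carried Nppa-Cre4, in which the atrial natriuretic peptide promoter drives Cre recombinase in atrial muscle, and CT, a construct from which Cre switches on the T-box repressor Tbx3. The 6 Control mice carried Nppa-Cre4 (Cre4) only, so Cre was common to both groups, and no group carried CT without Cre. Arrays of a group are described as biological replicates, with no age or strain given.

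The mitochondrial ribosome, or mitoribosome, translates the few messenger RNAs that mitochondrial DNA encodes, all of them for core subunits of the respiratory chain and ATP synthase. Its RNAs are made inside the organelle, while its proteins are all encoded in the nucleus, translated in the cytosol and imported. Some of these proteins descend from bacterial ribosomal proteins, and others were added in the mitochondrial lineage. Heart muscle is rich in mitochondria, and inherited defects of human MRPL3 and MRPL44 cause cardiomyopathy.

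Levels are log2 signals of a probe on 1 array, and changes are Tbx3 minus Control on the same scale. The deposited values were taken as natural logs from their range. Read as base 2, every log2 change below shrinks by a factor of 0.693 and no p-value moves. Mean correlations of an array with the others of its group ran from 0.966 (Control array 4) to 0.978. Precision is limited by the small number of arrays. Tbx3 itself did not check the group labels: its brighter probe read 6.26 to 6.79 in Control and 5.98 to 6.44 in Tbx3 arrays (change -0.42, SE 0.11, adjusted p = 0.0263, kept only without Control 4, Control 6, Tbx3 1, Tbx3 2 or Tbx3 6), its dimmer probe changed by 0.02 (adjusted p = 0.982), and where either lies relative to the CT construct is not known here.

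Mitoribosomal genes were lower in the Tbx3 atria, by a small amount and across both subunits. Of the 77 genes, 20 (26%) fell at an adjusted p under 0.05 (limma, Benjamini-Hochberg over all probes), against 2.98% of all genes, and 0 rose, against 2.97% of all genes. At an unadjusted p under 0.05, 46 were lower and 0 higher, against 1567 and 1503 of the 17655 genes. The falls comprised 12 of 48 large-subunit genes and 8 of 29 small-subunit genes. They ran from 0.33 to 0.57 on the log2 scale, or from 20.6% to 32.8%. The change was below 0 in 74 of the 77 genes, against 50.9% of all genes, and its median was -0.23 in each subunit, against -0.003 over all genes. In atrial tissue, fewer cells of a type and less RNA per cell cannot be told apart. Mitoribosomal probes are bright, so the same counts were taken among the 7351 genes whose probe lay above the 75th percentile of brightness. There 6.64% of all genes fell, 6.46% rose and 49.8% had a change below 0. Of the 70 mitoribosomal genes among them 20 fell, 0 rose and 69 had a change below 0.

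Averaged over genes, the Tbx3 arrays were lower than all Control arrays in both subunits, without overlap. The mean log2 level of the 48 large-subunit genes in Control arrays 1 to 6 was 8.80, 8.74, 8.77, 8.82, 8.79 and 8.76. In Tbx3 arrays 1 to 6 it was 8.44, 8.52, 8.59, 8.66, 8.54 and 8.49. The small-subunit means were 8.57, 8.44, 8.49, 8.52, 8.54 and 8.47 in Control and 8.17, 8.24, 8.33, 8.32, 8.21 and 8.23 in Tbx3 arrays. The Tbx3 arrays were unequal: 70 of the 77 genes in Tbx3 array 1 lay below their own mean over the 12 arrays, but only 45 in array 3 and 41 in array 4. Control arrays had 6 to 22 genes below that mean. The gap was as wide in the small subunit (8.51 ± 0.05 against 8.25 ± 0.06, SD, n = 6) as in the large one (8.78 ± 0.03 against 8.54 ± 0.08).

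**Figure D1:**
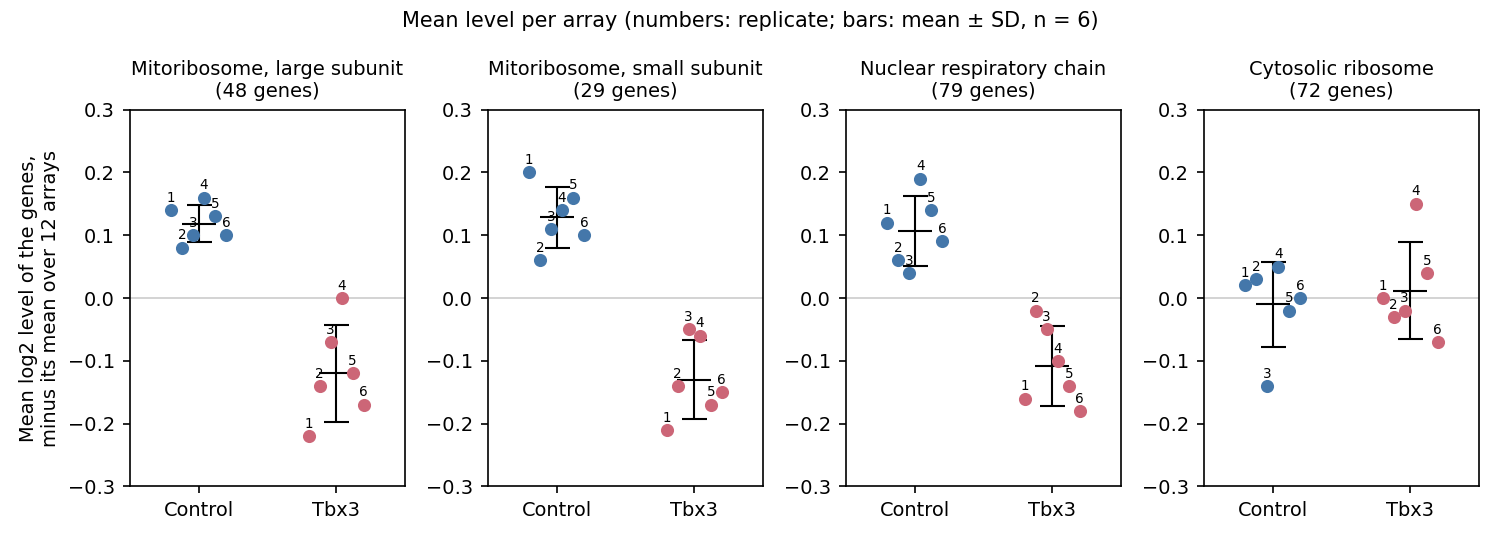
Mean log2 level of the genes of each set in each of the 12 arrays, minus the set's mean over all arrays (y axis), with Control and Tbx3 arrays side by side (x axis), digits for the replicate number and bars for the mean ± SD of 6 arrays. In both mitoribosomal subunits the 6 Tbx3 arrays lie below the 6 Control arrays.

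**Figure D2:**
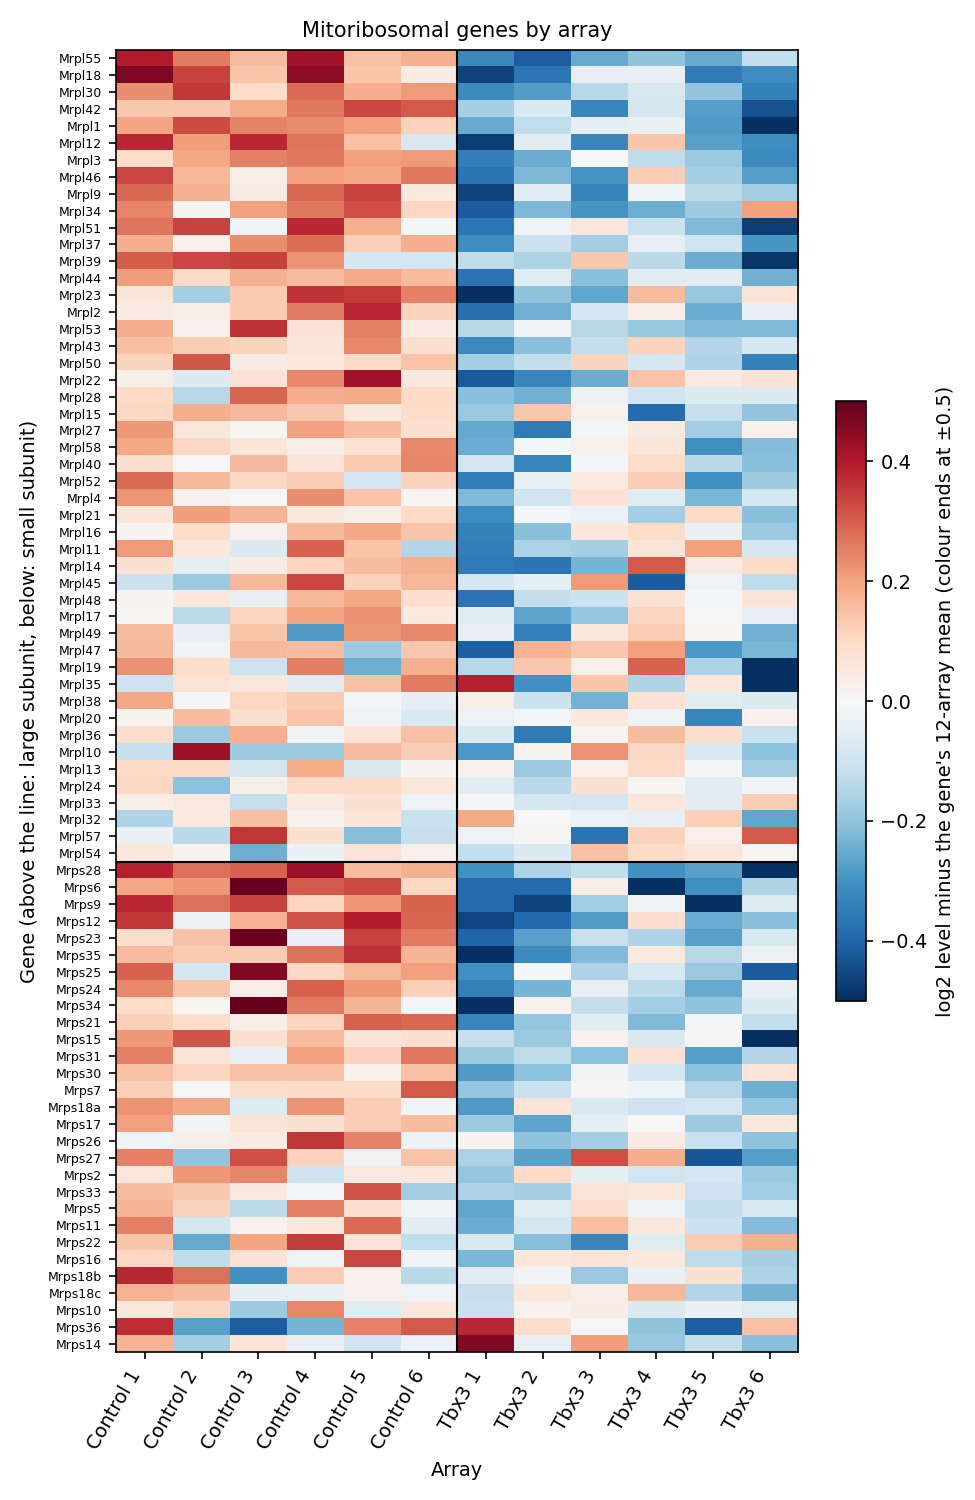
Each row is a mitoribosomal gene and each column an array, and colour is the log2 level minus that gene's mean over the 12 arrays, with the scale ending at 0.5 on either side. Tbx3 arrays 3 and 4, with 45 and 41 of 77 genes below their mean, are paler than Tbx3 array 1, with 70.

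In the small subunit, which holds the messenger RNA and checks the pairing of codon and tRNA, the smallest p-values belonged to proteins with bacterial relatives. Mrps28 read 8.90, 9.03 and 9.17 (lowest, median and highest) in Control and 8.18, 8.45 and 8.62 in Tbx3 arrays, a fall of 0.57 (SE 0.10, adjusted p = 0.000384). All 6 Tbx3 arrays lay below all 6 Control arrays, and the fall came to 32.8%. Mrps6, a relative of bacterial S6, read 11.11, 11.27 and 11.57 in Control and 10.49, 10.66 and 11.04 in Tbx3 arrays, a fall of 0.57 (SE 0.11, adjusted p = 0.00108). Its groups were apart as well. Mrps9, a protein of the head of the subunit, read 8.79, 8.97 and 9.06 against 8.17, 8.40 and 8.67 and fell by 0.53 (SE 0.10, adjusted p = 0.00175), again without overlap. Its second probe, at the 33.6th percentile of brightness among all probes, changed by 0.04 (adjusted p = 0.941), so the fall rests on the brighter probe.

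Mrps12, the relative of bacterial S12 that sits at the decoding site, read 9.03, 9.36 and 9.45 in Control and 8.60, 8.80 and 9.14 in Tbx3 arrays, a fall of 0.50 (SE 0.11, adjusted p = 0.00385). Here 5 of the 6 Tbx3 arrays lay below the lowest Control array, and the groups overlapped. Its second probe fell too, by 0.37 (adjusted p = 0.0478). Mrps23, a protein of the mitochondrial lineage, read 9.18, 9.41 and 9.70 against 8.81, 9.00 and 9.13 and fell by 0.43 (SE 0.10, adjusted p = 0.0121), with the groups apart. The remaining small-subunit falls were closer to the threshold. Mrps35, another addition of the mitochondrial lineage, read 8.67 to 8.90 against 7.98 to 8.59 and fell by 0.41 (adjusted p = 0.0223), while its second probe changed by -0.30 (adjusted p = 0.112). Mrps25 overlapped at 7.69 to 8.24 against 7.36 to 7.77 (fall 0.38, adjusted p = 0.0364); of its other probes, 1 fell by 0.38 (adjusted p = 0.0395) and 1 changed by -0.31 (adjusted p = 0.0845). Mrps24, the relative of bacterial S3, was apart at 11.11 to 11.38 against 10.74 to 11.04 and fell by 0.35 (adjusted p = 0.0372).

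In the large subunit, which joins the amino acids, the falls included proteins of several regions. Mrpl55 read 7.90, 7.97 and 8.17 in Control and 7.34, 7.50 and 7.63 in Tbx3 arrays, a fall of 0.52 (SE 0.10, adjusted p = 0.00085) with the groups apart. Mrpl18, of the central protuberance that faces the small subunit, read 8.65, 8.85 and 9.08 against 8.15, 8.28 and 8.57 and fell by 0.52 (SE 0.11, adjusted p = 0.0029). All its Tbx3 arrays were below all its Control arrays. Mrpl46, in the same protuberance, read 8.25, 8.41 and 8.55 against 7.85, 7.96 and 8.34 and fell by 0.40 (SE 0.10, adjusted p = 0.0179), with 5 of 6 Tbx3 arrays below the lowest Control array.

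Mrpl1, of the stalk through which used tRNAs leave, read 8.30, 8.41 and 8.51 in Control and 7.59, 7.99 and 8.15 in Tbx3 arrays and fell by 0.44 (SE 0.10, adjusted p = 0.00909). Both its probes fell, the second by 0.43 (adjusted p = 0.0232), and the groups were apart. Mrpl3, which reaches towards the peptidyl transferase centre, read 9.50, 9.61 and 9.67 against 9.06, 9.19 and 9.41, also apart, and fell by 0.41 (SE 0.09, adjusted p = 0.00913). Of its 3 probes the second also fell by 0.41 (adjusted p = 0.0143), and the dimmest changed by -0.22 (adjusted p = 0.343). Mrpl12, of the stalk that recruits translation factors and also a partner of the mitochondrial RNA polymerase, overlapped between groups. It read 10.37, 10.69 and 10.83 against 9.98, 10.16 and 10.59 and fell by 0.43 (SE 0.11, adjusted p = 0.0205).

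Mrpl30, a relative of bacterial L30, read 10.25, 10.38 and 10.51 in Control and 9.82, 9.92 and 10.08 in Tbx3 arrays and fell by 0.45 (SE 0.09, adjusted p = 0.00354). Mrpl42, which has no bacterial relative in the ribosome, read 10.62, 10.71 and 10.82 against 10.05, 10.27 and 10.41 and fell by 0.45 (SE 0.10, adjusted p = 0.00411). Both genes had all Tbx3 arrays below all Control arrays. The other large-subunit falls were Mrpl9 (0.39, adjusted p = 0.0234), Mrpl34 (0.38, adjusted p = 0.0345), Mrpl37 (0.34, adjusted p = 0.0376) and Mrpl44 (0.33, adjusted p = 0.041). Of these, Mrpl34 overlapped between groups at 8.17 to 8.48 against 7.74 to 8.36. Mrpl9 was apart at 7.20 to 7.50 against 6.70 to 7.14, Mrpl37 at 9.72 to 9.98 against 9.39 to 9.66 and Mrpl44, a relative of RNase III enzymes, at 8.15 to 8.26 against 7.68 to 8.00. Mrpl9 and Mrpl37 each had a second probe that missed the threshold, with changes of -0.35 (adjusted p = 0.0714) and -0.32 (adjusted p = 0.0694). Over all 126 probes of the family, 25 fell and 0 rose, against 1.68% and 1.77% of all probes. The 25 covered 21 genes, because Mrpl43 fell only by its dimmer probe (-0.40, adjusted p = 0.0206) and not by its brighter one (-0.26, adjusted p = 0.188).

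**Figure D3:**
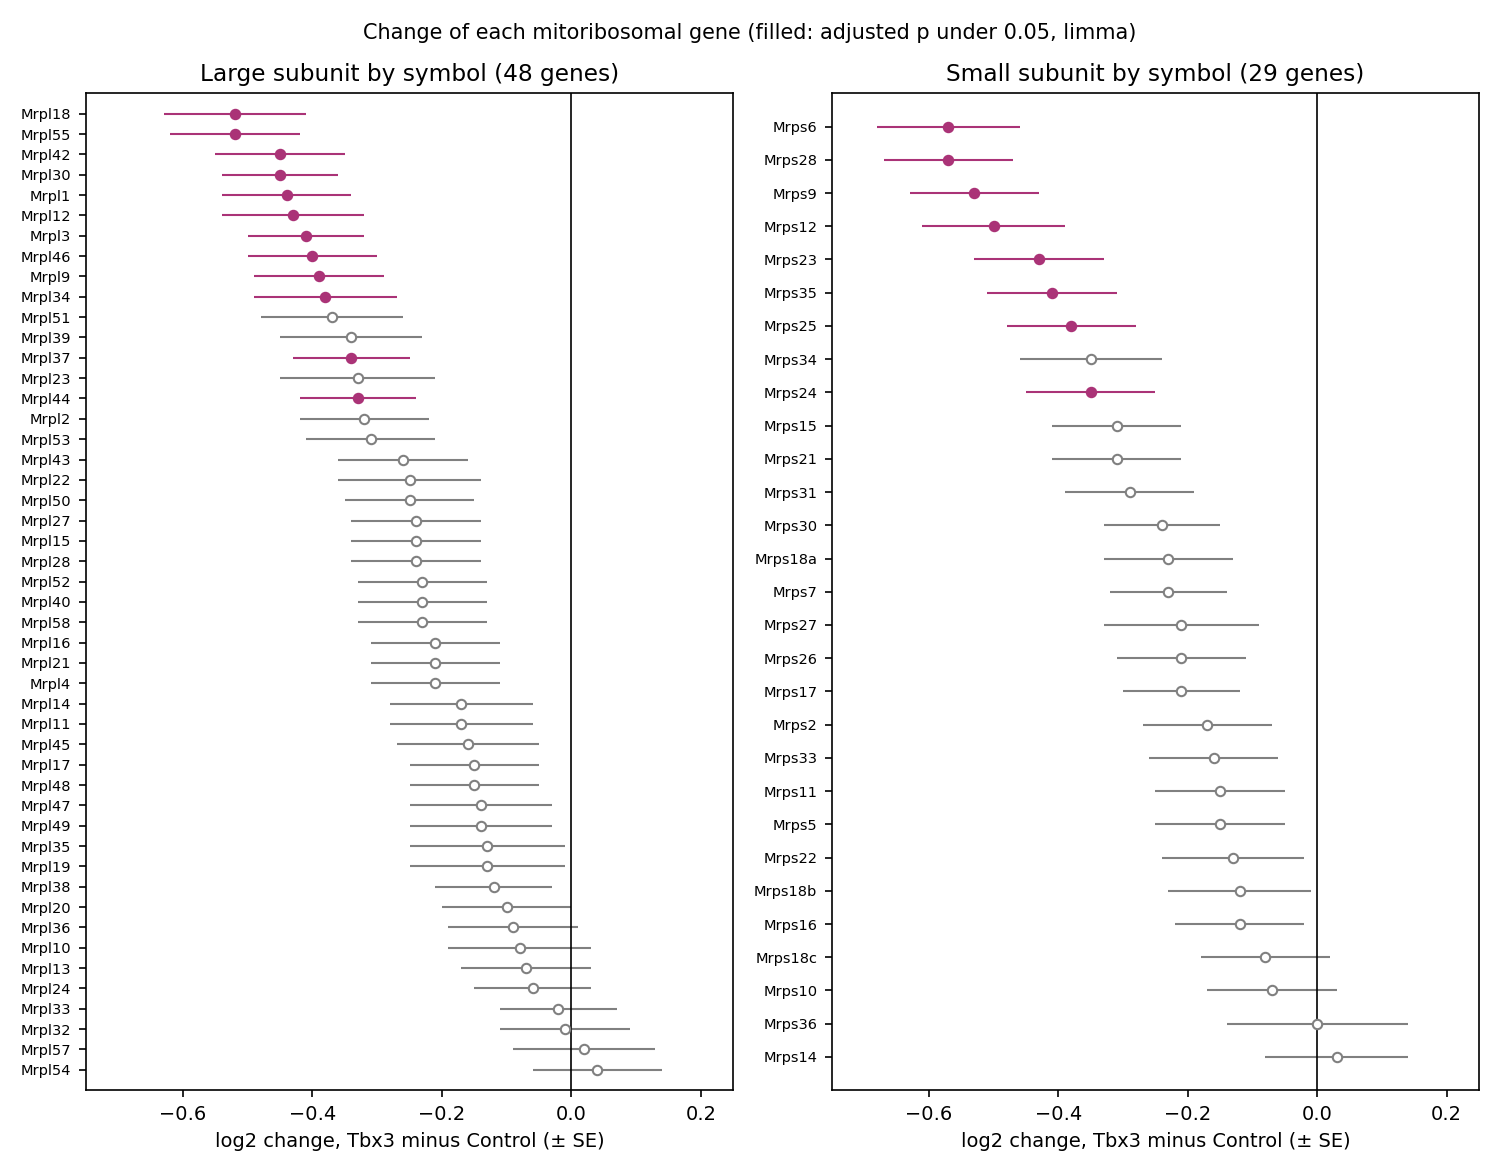
Log2 change, Tbx3 minus Control, of every mitoribosomal gene with its standard error, ranked within each subunit, with filled points for genes at an adjusted p under 0.05 (limma). The filled points run from -0.57 to -0.33, and 3 of the 77 points lie above 0.

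How far single arrays carried these calls differed between genes. The calls of 11 genes held whichever array was left out: Mrps28, Mrps6, Mrps9, Mrps12, Mrps23, Mrpl55, Mrpl18, Mrpl30, Mrpl42, Mrpl1 and Mrpl3. Mrpl46 lost its call without Tbx3 array 1, Mrps35 without Control 5 or Tbx3 1, Mrpl9 without Control 1, Control 5, Tbx3 1 or Tbx3 3, and Mrpl12 without Control 1, Control 3, Tbx3 1, Tbx3 3 or Tbx3 5. Those closest to the threshold depended on most arrays: Mrps25 kept its call only without Control 2, Control 4, Tbx3 2 or Tbx3 4, Mrpl34 only without Control 2, Control 6 or Tbx3 6, Mrps24 only without Control 3, Tbx3 3 or Tbx3 6, Mrpl37 only without Control 2, Tbx3 2 or Tbx3 4, and Mrpl44 only without Tbx3 2, Tbx3 4 or Tbx3 5. The count of 20 became 13 without Control array 1, 13 without Control array 5 and 11 without Tbx3 array 1.

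The 57 genes that did not pass the test mostly had small negative changes. In 54 of them the change was below 0, and their median was -0.17. Closest to the threshold were Mrpl51 (-0.37, adjusted p = 0.0515), Mrpl53 (-0.31, adjusted p = 0.0765) and Mrps21 (-0.31, adjusted p = 0.0767), set against Mrps24, Mrpl37 and Mrpl44 just inside it. Mrpl51 read 10.64, 10.88 and 11.04 in Control and 10.19, 10.49 and 10.72 in Tbx3 arrays, which overlapped, and it passed the threshold without Control 3, Control 6, Tbx3 2 or Tbx3 3. All 6 Tbx3 arrays lay below all Control arrays in 19 genes, against 2.15% of all genes and 4.8% of those above the 75th percentile of brightness. In 0 genes were all Tbx3 arrays above all Control arrays, against 1.89% and 4.16%. Among these 19 were 15 of the 20 called genes and 4 that were not called. The 4 were Mrpl53, Mrps21, Mrpl2 (-0.32, adjusted p = 0.0845) and Mrps15 (-0.31, adjusted p = 0.131), the last 2 named after their values were seen.

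Bright probes that hardly moved were also present. Mrpl33, a small protein with a bacterial relative, read 11.14, 11.29 and 11.33 in Control and 11.16, 11.22 and 11.38 in Tbx3 arrays, a change of -0.02 (SE 0.09, adjusted p = 0.969). The groups lay on top of each other, and its second probe changed by -0.07 (adjusted p = 0.882). Mrpl20 changed by -0.10 (SE 0.10, adjusted p = 0.803). Mrpl54, a protein near the base of the factor-recruiting stalk, had the highest change of the family at 0.04 (SE 0.10, adjusted p = 0.948), from 9.27, 9.54 and 9.58 in Control to 9.39, 9.55 and 9.66 in Tbx3 arrays. These values leave room for changes of about 2 standard errors either way.

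The dimmest probes showed little change in either direction, and whether they read their transcript above background is not known, since no detection p-values were used. The 7 genes whose probe lay below the 75th percentile had 0 calls and a median change of -0.01, while the 61 above the 90th percentile had 19 calls and a median of -0.25. The 9 genes from the 75th to the 90th percentile had 1 call and a median of -0.17. Among the 7 were Mrpl45, which anchors the large subunit to the inner membrane (45.0th percentile, change -0.16, adjusted p = 0.658), and Mrps22 (33.5th percentile, -0.13, adjusted p = 0.789). Mrpl57 changed by 0.02, Mrpl32 by -0.01 and Mrps14 by 0.03. Mrps36, whose product is now known as a subunit of the oxoglutarate dehydrogenase complex and not of the ribosome, read 5.16 to 5.94 against 5.16 to 5.95 (adjusted p = 0.999). Across the 77 genes the Spearman correlation of change with mean level was -0.31, a description over genes that share the same 12 arrays.

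**Figure D4:**
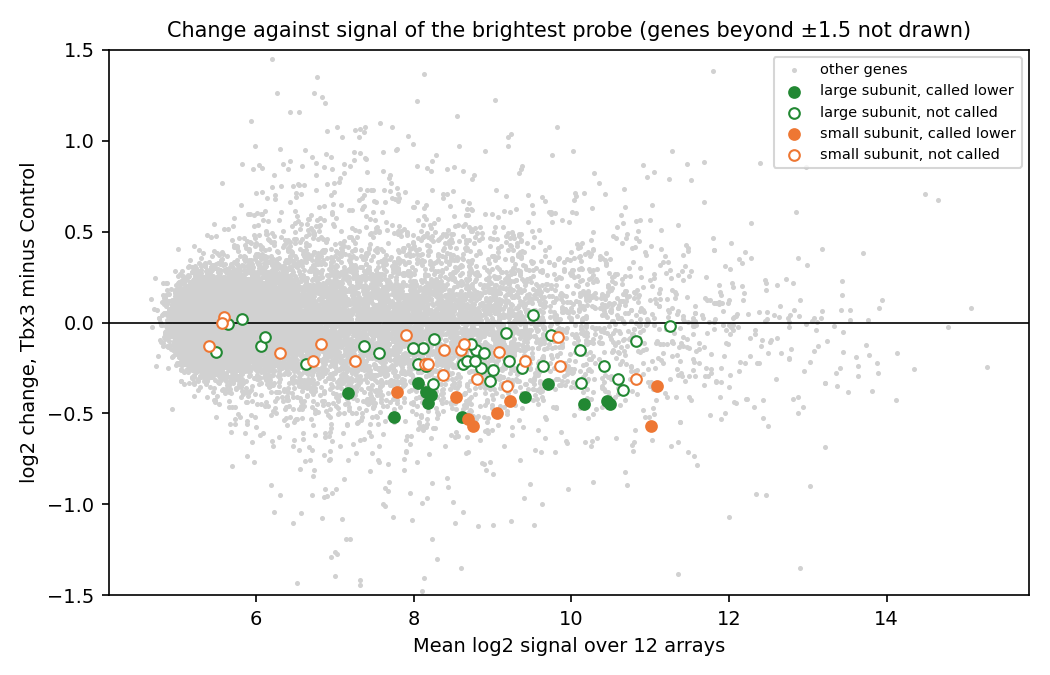
Log2 change, Tbx3 minus Control (y axis), against the mean log2 signal of the gene's brightest probe over the 12 arrays (x axis), for mitoribosomal genes (coloured by subunit, filled where called lower) and the other genes (grey, those beyond 1.5 not drawn). The 7 genes whose probe is below the 75th percentile of brightness have a median change of -0.01 and 0 filled points, and the 20 filled points, at changes of -0.57 to -0.33, belong to brighter probes.

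The genes were also grouped by the origin of their proteins, with no test between the groups. Of 46 proteins with a bacterial counterpart 13 fell, with a median change of -0.21, and of 31 proteins specific to mitochondria 7 fell, with a median of -0.23. The symbols do not match the assembled particle everywhere: the products of Mrps18a (-0.23, adjusted p = 0.296) and Mrps30 (-0.24, adjusted p = 0.221) are parts of the large subunit. With these moved and Mrps36 left out the medians were -0.23 and -0.22. The median SD of a gene's level between animals was 0.12 in Control and 0.15 in Tbx3 arrays, against 0.18 in each group over all genes. That 0.18 covers probes of every brightness, and no SD was taken over bright genes alone. The Tbx3 SD was the larger in 54 of the 77 genes.

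Promoters of mitoribosomal genes often hold recognition letters of the factors NRF1, GABP (an ETS protein) and YY1, which are known activators of nuclear genes for mitochondria. RefSeq windows of 250 bases before to 50 after the gene start (GRCm38.p6) were matched for 68 of the 77 genes. The motifs were chosen after the values were seen and searched on both strands. The NRF1 motif (GCGC, any base, then TGCGC) was in 13 of 68 windows (19.1%), against 8.15% of 14201 genes with a window on the array. The ETS motif CCGGAAG was in 26 (38.2%, against 14.1%) and the YY1 motif AAGATGGCG, which can overlap the ETS motif by its AAG, in 8 (11.8%, against 2.46%). At least 1 of these was in 41 windows (60.3%, against 22.1%), among them 13 of 18 called and 28 of 50 uncalled genes. The single motifs were divided among called and uncalled genes as 5 of 18 and 8 of 50 for NRF1, 5 of 18 and 21 of 50 for ETS, and 3 of 18 and 5 of 50 for YY1. The T-box core AGGTGTGA was in 0 of 68 windows, against 1.33% of genes on the array, and the E-box CACGTG in 5 (7.35%, against 9.8%). The comparison genes were not matched for brightness, so these shares do not compare genes of like expression level. A match describes letters in these windows and does not show binding.

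The windows below are shown because they span the outcomes: called genes with an NRF1 match (Mrps9), an ETS match (Mrpl18), a YY1 match (Mrpl42) or none of these (Mrpl55), and the uncalled bright gene Mrpl33 with an ETS match. Each runs 5' to 3' on the gene's strand, with the match in capitals.
Mrps9, chr1:42850983-42851282, + strand: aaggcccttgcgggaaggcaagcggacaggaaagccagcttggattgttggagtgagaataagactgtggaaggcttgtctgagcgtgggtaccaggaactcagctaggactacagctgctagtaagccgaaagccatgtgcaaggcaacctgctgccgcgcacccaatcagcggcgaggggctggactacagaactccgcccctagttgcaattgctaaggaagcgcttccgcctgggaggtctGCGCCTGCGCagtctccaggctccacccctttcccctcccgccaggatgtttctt
Mrpl18, chr17:12916042-12916341, - strand: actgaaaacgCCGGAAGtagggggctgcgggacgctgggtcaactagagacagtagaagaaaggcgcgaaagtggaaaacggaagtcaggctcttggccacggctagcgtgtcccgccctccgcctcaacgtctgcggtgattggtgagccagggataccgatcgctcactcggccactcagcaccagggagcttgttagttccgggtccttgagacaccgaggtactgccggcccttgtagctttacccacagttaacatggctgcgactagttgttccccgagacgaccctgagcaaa
Mrpl42, chr10:95501900-95502199, - strand: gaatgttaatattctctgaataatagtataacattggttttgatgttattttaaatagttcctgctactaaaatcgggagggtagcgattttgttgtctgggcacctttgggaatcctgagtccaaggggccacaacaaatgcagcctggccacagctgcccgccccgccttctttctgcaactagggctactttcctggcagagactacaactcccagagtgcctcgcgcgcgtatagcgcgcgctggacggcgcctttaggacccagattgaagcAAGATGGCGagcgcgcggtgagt
Mrpl55, chr11:59202236-59202535, + strand: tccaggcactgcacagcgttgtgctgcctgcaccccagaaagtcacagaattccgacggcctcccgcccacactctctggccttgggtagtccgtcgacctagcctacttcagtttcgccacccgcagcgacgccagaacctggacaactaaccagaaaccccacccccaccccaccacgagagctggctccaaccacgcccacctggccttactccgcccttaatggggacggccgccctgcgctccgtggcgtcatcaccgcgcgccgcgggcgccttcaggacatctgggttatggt
Mrpl33, chr5:31613701-31614000, + strand: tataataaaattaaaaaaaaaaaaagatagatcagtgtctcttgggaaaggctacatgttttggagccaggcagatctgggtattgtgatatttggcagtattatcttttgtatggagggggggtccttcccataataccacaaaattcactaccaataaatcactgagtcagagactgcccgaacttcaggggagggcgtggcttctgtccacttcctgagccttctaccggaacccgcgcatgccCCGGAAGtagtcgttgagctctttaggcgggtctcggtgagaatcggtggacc
The match begins at base -5 from the gene start in Mrps9, -240 in Mrpl18, 28 in Mrpl42 and -3 in Mrpl33. So a window with an ETS match accompanied a fall of 0.52 in Mrpl18 and a change of -0.02 in Mrpl33, and a window with none of the 3 motifs accompanied a fall of 0.52 in Mrpl55.

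The other lists of mitochondrial translation also had medians below 0 and 0 genes that rose. Of 4 measured mitoribosome proteins named outside the Mrpl and Mrps series 0 passed in limma (2 at an unadjusted p under 0.05), with a median change of -0.22. Ptcd3 (-0.32, adjusted p = 0.0564) and Chchd1 (-0.29, adjusted p = 0.0956), both of the small subunit, had their groups apart. Of 15 translation factors 2 fell (13.3%, against 2.98% of all genes) and 0 rose, with a median of -0.26. They were the elongation factor genes Gfm1 (from 7.86 to 7.47, a fall of 0.39, SE 0.10, adjusted p = 0.0181) and Tufm (from 10.34 to 9.95, a fall of 0.38, SE 0.10, adjusted p = 0.0217). Gfm1 lost its call without Control 2 or Tbx3 5, and Tufm without Control 6, Tbx3 1, Tbx3 2 or Tbx3 6.

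Of 18 genes that charge mitochondrial tRNAs or make glutaminyl-tRNA 3 fell (16.7%, against 2.98% of all genes) and 0 rose. The median was -0.15. Ears2, for glutamate, fell by 0.43 (adjusted p = 0.0175), Tars2, for threonine, by 0.36 (adjusted p = 0.0299), and Qrsl1, of the enzyme that makes glutaminyl-tRNA, by 0.37 (adjusted p = 0.0272). Each depended on single arrays: Ears2 missed the threshold without Control 3, Tbx3 1 or Tbx3 6, Qrsl1 without 6 arrays (Control 1, 3, 5 and 6, Tbx3 1 and 5) and Tars2 without 7 (Control 1, 2, 3 and 5, Tbx3 1, 2 and 3). Of 22 genes of mitoribosome assembly and rRNA modification 2 fell (9.09%) and 0 rose, with a median of -0.13. The GTPase gene Mtg1 fell by 0.41 (adjusted p = 0.0101) and the rRNA methyltransferase gene Mrm1 by 0.56 (adjusted p = 0.0113), both whichever array was left out.

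Genes that act on mitochondrial DNA or on mitochondrial number were examined next. Of 15 genes of mitochondrial DNA transcription and upkeep 2 fell (13.3%, against 2.98% of all genes) and 0 rose, with a median of -0.07. In 12 of the 15 the change was below 0, and at an unadjusted p under 0.05, 6 were lower and 0 higher. The 2 that passed at an adjusted p under 0.05 were Tefm and Supv3l1. The elongation factor Tefm fell by 0.43 (adjusted p = 0.0248, lost without Control 3, Control 5, Tbx3 1, Tbx3 4 or Tbx3 5). The RNA helicase Supv3l1 fell by 0.35 (adjusted p = 0.0462, kept only without Control 5 or Tbx3 4). Of 12 regulators of mitochondrial biogenesis 1 fell (8.33%, against the same 2.98% and 6.64%) and 0 rose. In 7 of the 12 the change was below 0, and the median was -0.03. The gene that fell was the coactivator Ppargc1b, which went from 7.54 to 6.78, a fall of 0.75 (SE 0.13, adjusted p = 0.000567). Its groups were apart, and the call was kept whichever array was left out. Its relative Ppargc1a changed by 0.35 (SE 0.18, adjusted p = 0.492), and Nrf1 by 0.10 (adjusted p = 0.852).

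**Figure D5:**
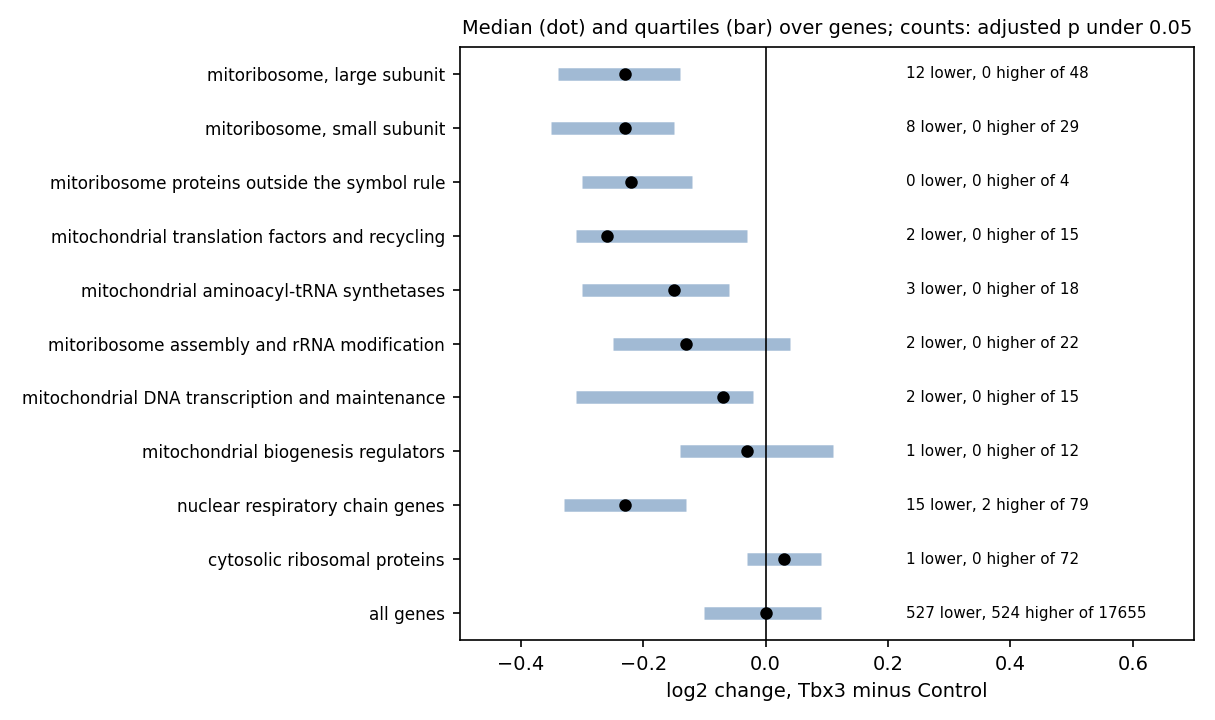
Median (dot) and quartiles (bar) of the log2 change, Tbx3 minus Control, over the genes of each set (rows), with the counts called lower and higher at an adjusted p under 0.05. Both mitoribosomal subunits and the nuclear respiratory chain genes have medians of -0.23, and the cytosolic ribosomal proteins 0.03.

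The median change of the cytosolic ribosomal proteins was near 0, while that of the nuclear respiratory chain genes was like that of the mitoribosome. Over all genes 2.98% fell and 2.97% rose, and above the 75th percentile of brightness 6.64% fell and 6.46% rose. Of 72 cytosolic ribosomal protein genes 1 fell (1.39%) and 0 rose, 27 had a change below 0, and the median was 0.03. Their mean log2 level overlapped between groups, at 10.93 to 11.12 in Control and 11.00 to 11.22 in Tbx3 arrays. The gene that fell, named after its values were seen, was Rpl3l (fall 0.86, SE 0.12, adjusted p = 3.96e-05), the form of Rpl3 made in striated muscle. Of 79 respiratory chain genes 15 fell (19%) and 2 rose, 71 had a change below 0, and the median was -0.23. Their mean level was 11.04 to 11.19 in Control and 10.82 to 10.98 in Tbx3 arrays, so these groups were apart like those of the mitoribosome. No test set the families against each other.

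Markers of several cell types moved along with the groups, and their part in the mitoribosomal shift was not tested. Cardiomyocyte markers were bright: of 9 measured, 2 fell (Myh6 by 0.41, adjusted p = 0.0299, kept only without Control 1, 2, 3 or 6 or Tbx3 2; Ryr2 by 0.46, adjusted p = 0.0127), and the median was -0.19. Their mean level overlapped between groups (13.33 to 13.59 against 13.16 to 13.54), as did their summed linear signal (158200 to 178140 against 126545 to 169199). Myl4, the brightest of them in Control arrays, read 15.40 there with an SD of 0.00. Quantile normalization gives probes of equal rank 1 value, so that part of the Control sum did not vary. Fibroblast markers had a median change of 0.32. Of 10 measured, 4 rose (Col1a1 by 0.94, Mfap5 by 0.94, Dpt by 0.88 and Lum by 0.83). The other 6 were not called, among them Col1a2 at -0.34, the only 1 with a change below 0. The fibroblast mean level overlapped between groups (9.54 to 10.12 against 9.82 to 10.42), as did the sum (20041 to 24860 against 23762 to 33570). Of 6 smooth muscle markers 3 rose (Acta2 by 0.88, Tagln by 0.77 and Myh11 by 0.76). Smtn fell by 0.42 (lost without Control 2, 5 or 6 or Tbx3 5 or 6), Cnn1 changed by 0.02 and Des by 0.06. The smooth muscle median was 0.41, with a sum of 5007 to 8072 against 7633 to 11773. Of 6 erythroid markers 1 rose (Slc4a1 by 0.93, kept only without Control 1, Control 6, Tbx3 2 or Tbx3 6), with a median of 0.64 and a sum of 8955 to 43807 against 33019 to 57192.

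Among the other lists, with the same shares for comparison, endothelial markers had 1 fall of 8 (Esam, lost without Control 5 or Tbx3 2, 3 or 4). Leukocyte markers had 0 calls of 6 in limma (3 higher at an unadjusted p under 0.05), white adipocyte markers 0 of 6 (1 lower at that level) and Schwann cell markers 1 rise of 4 (Sox10 by 0.87). Of 6 brown adipocyte markers 1 rose (Cidea by 1.86), while Ucp1, which defines that cell type, changed by 0.02 on a probe at the dim end of the array.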

How the data were processed

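Total RNA from the atria of 6 Tbx3 and 6 Control mice was amplified, biotin-labelled and hybridised to beadchips, per the labels' protocols. The authors deposited a table of log values per probe, taken here as natural log (ln) values. Their range was 2.63 to 10.81 (median 3.87), and the exponential of the highest, 49513, lies under the scanner ceiling of 65535. Read as base 2 the highest value would lie under it too, so the ceiling allows natural logs but does not exclude base 2. How the authors corrected background and normalized is not given in the sources used here. Of 46133 rows, 10 empty and 9 repeated ones were dropped, which left 46114 probes, of which 29533 had 1 gene symbol and 16581 several or none. Division by the natural log of 2 gave log2 levels, which were quantile normalized, and a gene was read by its brightest probe.

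Groups were compared with limma 3.58.1 in R 4.3.3 (lmFit and eBayes, 2-sided, Benjamini-Hochberg over all probes, threshold 0.05). The test was checked on simulated data with known changes, 50 probes at each size. It recovered 4% of the 1.25-fold changes, 70% of the 1.5-fold, 96% of the 2-fold and 100% of the 3-fold ones. Of its 148 calls, 13 were false. The real data gave 775 probes called lower and 817 higher, so far fewer probes changed in the simulation. Its changed probes were drawn at random from probes of every brightness, so these rates are not those of the bright mitoribosomal probes. Recovery of changes under 1.25-fold was not tested. The members, gene lists and promoter motifs were chosen with earlier results of these data known. The rule for named genes took every called member, the 3 brightest and 3 dimmest of each subunit, those beside the threshold, those whose probes disagree and the extremes. From each pathway list it took the called genes, or up to 2 given as values. Alternatives changed the normalization, probe filter, probe summary, variance model, replicate block, arrays, log base and threshold. Sequences are from RefSeq.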

Additional observations from a re-analysis of the deposited data

Results flagged for a closer look

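For 33 named genes and the 2 subunit means, each group was searched for an array far from the others. Of 70 groups of 6 arrays, 2 held such an array, and chance gives about 1 in 20. Mrpl20 read 10.49 in Tbx3 array 5 and 10.79 to 10.87 in the other Tbx3 arrays. Mrpl54 read 9.27 in Control array 3 and 9.48 to 9.58 in the other Control arrays. Neither gene passed the test.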

How the results depend on the processing

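The count of 20 mitoribosomal genes called lower ranged from 11 to 19 when each array was left out in turn. It was 13 without Control replicate 4 and Tbx3 replicate 6 together and 10 at an adjusted p threshold of 0.01. It was 30 of 70 with only probes above the 75th percentile of brightness, where fewer probes are tested and 9.04% of the probes kept were called lower, and 25 with the intensity trend and robust option. The count called higher was 0 in all these settings. The medians of both subunits stayed between -0.26 and -0.21 with an array left out, and read as base 2 each was -0.16, by construction. No called gene changed direction. With the mean of all probes Mrps9 changed by -0.24 (adjusted p = 0.0984).

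The replicate block left 15 called, all among the 20; Mrpl34, Mrpl37, Mrpl44, Mrps24 and Mrps25 missed the threshold. Arrays of the same number did not deviate together (correlations 0.087, 0.010, 0.021, 0.050, -0.072 and -0.067), and only number 4 correlated best with its own, so the numbers were not taken as pairs.

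Signs turned only in uncalled genes near 0. Mrps36 was 0.01 as deposited and 0.01 after median centring, Mrpl20 and Mrpl32 were each 0.01 by the mean of all probes, and Mrpl32 was 0.0038 with array weights. Without Control replicate 4 and Tbx3 replicate 6 together, Mrpl32 was 0.05 and Mrpl57 -0.02. With single arrays left out, Mrps36 ran from -0.08 to 0.08, Mrpl32 from -0.04 to 0.05, Mrpl57 from -0.04 to 0.10, Mrpl54 from -0.01 to 0.07 and Mrps14 from -0.05 to 0.08.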

Other observations

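The 2 respiratory chain genes of 79 that rose were Cox8a and Cox6a1, named with their muscle relatives after their values were seen and from no fixed list. Cox8b, the form of cytochrome oxidase subunit VIII made in heart and skeletal muscle, fell by 0.52 (SE 0.10, adjusted p = 0.00199), while Cox8a, the form made widely, rose by 0.37 (SE 0.10, adjusted p = 0.0262, lost without Control 2, Control 3, Tbx3 1, Tbx3 4 or Tbx3 5). Cox6a1, the widely made form of subunit VIa, rose by 0.65 (SE 0.10, adjusted p = 8.97e-05), and its other probe changed by 0.67. Cox6a2, its muscle form, changed by -0.25 and did not pass the test, and neither did Cox7a1, the muscle form of subunit VIIa (-0.35, adjusted p = 0.0828). The groups of Cox8a and Cox6a1 were apart, with all Tbx3 arrays above all Control arrays, and those of Cox8b overlapped.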
